A study of Homo sapiens with 12 samples.

Results

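Ribosome biogenesis is the making of ribosomal subunits in the nucleolus, and its genes were followed here in HK-2 cells, an immortalised epithelial line from human kidney proximal tubule. The list held 36 genes: MYC, 3 subunits of RNA polymerase I, and proteins that modify, fold and cleave ribosomal RNA or build it into the small and large subunits. A gene was read at the probe set with a single gene symbol whose mean over the arrays was highest, and 31 of the 36 had one. All 31 passed the filter that left 10508 tested genes of 19775 with a probe set (a log2 value above 4 on all 3 arrays of at least 1 group). NOP56, DKC1, BOP1, PPAN and GNL3 were not analysed here.

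The 12 Affymetrix arrays formed 4 groups of 3 biological replicates, cells exposed to CsA or to control for 48 h and cells exposed to CsA or to control for 12 h. CsA is read as cyclosporine A, a calcineurin inhibitor given against transplant rejection that can be toxic to the kidney. The labels give no dose. The controls received the vehicle, and all groups were seeded a day before treatment, treated close to confluence and kept in the same medium supplemented with EGF, hydrocortisone, insulin, transferrin and selenium. The study set CsA against its control at each time. As background, HK-2 was immortalised with human papillomavirus oncogenes that disable p53 and RB, which every group carries. In bulk RNA, fewer cells of a type and less RNA per cell cannot be told apart.

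The nucleolus is where RNA polymerase I transcribes the long precursor of ribosomal RNA. Small nucleolar ribonucleoproteins (snoRNPs) then guide its chemical modification, box C/D particles adding methyl groups and box H/ACA particles turning uridine into pseudouridine, while assembly factors cut, fold and package it into subunits. MYC, a transcription factor that dimerises with MAX, drives many of these genes in growing cells, and ribosome production commonly goes with cell growth and division.

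The median log2 value of an array was 2.85 to 2.96. Arrays of a group correlated at 0.997 or more at 12 h, at 0.991 or more in control at 48 h and at 0.982 or more under CsA at 48 h, where replicate 3 stood apart. CsA and control arrays of the same time and number deviated together from their group means, so differences within these pairs are given. All 7 epithelial markers were above 4 on every array, but of 10 proximal tubule markers only DPP4 was, and CUBN, LRP2, SLC34A1, AQP1, ANPEP, GGT1, SLC5A2 and SLC22A6 never reached it. The leukocyte markers PTPRC, LST1 and CD3E never reached 4 either, nor did CDH5, VWF, KDR and TEK of endothelium, while PECAM1 was above it throughout. Markers of other cell types were split. Of fibroblast markers, COL1A1, DCN and LUM were above 4 throughout, and COL1A2, PDGFRB and COL3A1 never reached it. Of podocyte markers, PODXL and SYNPO were above 4 throughout, and NPHS1 and WT1 never reached it. Of distal nephron markers, AQP2 and SCNN1A were above 4 throughout, and SLC12A1, SLC12A3 and CALB1 never reached it.

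The promoters of these genes were searched for CACGTG, the E-box letters that MYC and MAX bind, which read the same on both strands. RefSeq windows of 300 bases around the transcription start (GRCh38.p14, 250 before and 50 after) were at hand for 25 of the 31 genes, and 13 of the 25 (52%) held the motif. Of 8696 tested genes with a window 13.4% held it. In all 13 a copy began within 50 bases of the start, a distance chosen after the positions were seen. That is again 13 of 25 genes (52%), against 499 of the 8696 tested genes (5.74%). Chosen with the listed positions known, the distance could only lower the share of all genes, so no conclusion is drawn from it. The 13 were FBL, NOP2, NOP14, GAR1, NOP10, PES1, RRP9, UTP4, UTP20, WDR43, DDX21, BYSL and MRTO4. Among other lists, MYC targets outside the nucleolus held it in 14 of 21 genes (66.7%), other small subunit factors in 14 of 39 (35.9%), other large subunit factors in 12 of 44 (27.3%) and RNA polymerase III genes in 6 of 16 (37.5%). Other RNA polymerase I genes held it in 1 of 11 (9.09%), RNA exosome genes in 1 of 11, snoRNP assembly factors in 0 of 8, mitosis genes in 4 of 19 (21.1%) and cytosolic ribosomal protein genes in 3 of 28 (10.7%). A match describes letters in a window, and base composition was not matched between these sets.

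The stretch from 70 bases before to 30 bases after the start is printed for 6 genes, with the E-box in capitals. UTP20, MRTO4 and FBL carry it and were lower at 48 h in control, NIP7 was lower and has none in its window, and UTP4 and NOP10 carry it and did not pass the test. They lie at chr12:101280035-101280134 (UTP20, plus strand), chr1:19251735-19251834 (MRTO4, plus), chr19:39846350-39846449 (FBL, minus), chr16:69339702-69339801 (NIP7, plus), chr16:69132579-69132678 (UTP4, plus) and chr15:34343107-34343206 (NOP10, minus), each read 5′ to 3′.
UTP20: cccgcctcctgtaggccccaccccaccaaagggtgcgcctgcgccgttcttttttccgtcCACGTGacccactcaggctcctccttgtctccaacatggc
MRTO4: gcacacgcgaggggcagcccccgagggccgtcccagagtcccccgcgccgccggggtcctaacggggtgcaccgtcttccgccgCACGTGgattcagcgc
FBL: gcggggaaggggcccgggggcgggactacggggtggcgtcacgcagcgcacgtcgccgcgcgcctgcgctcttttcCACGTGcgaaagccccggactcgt
NIP7: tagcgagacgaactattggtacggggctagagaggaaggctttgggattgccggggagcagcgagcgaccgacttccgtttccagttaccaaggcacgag
UTP4: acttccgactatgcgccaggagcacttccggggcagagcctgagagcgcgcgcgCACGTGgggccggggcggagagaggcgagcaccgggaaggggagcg
NOP10: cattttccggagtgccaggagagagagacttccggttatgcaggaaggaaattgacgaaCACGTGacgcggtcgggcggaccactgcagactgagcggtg

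**Figure D1:**
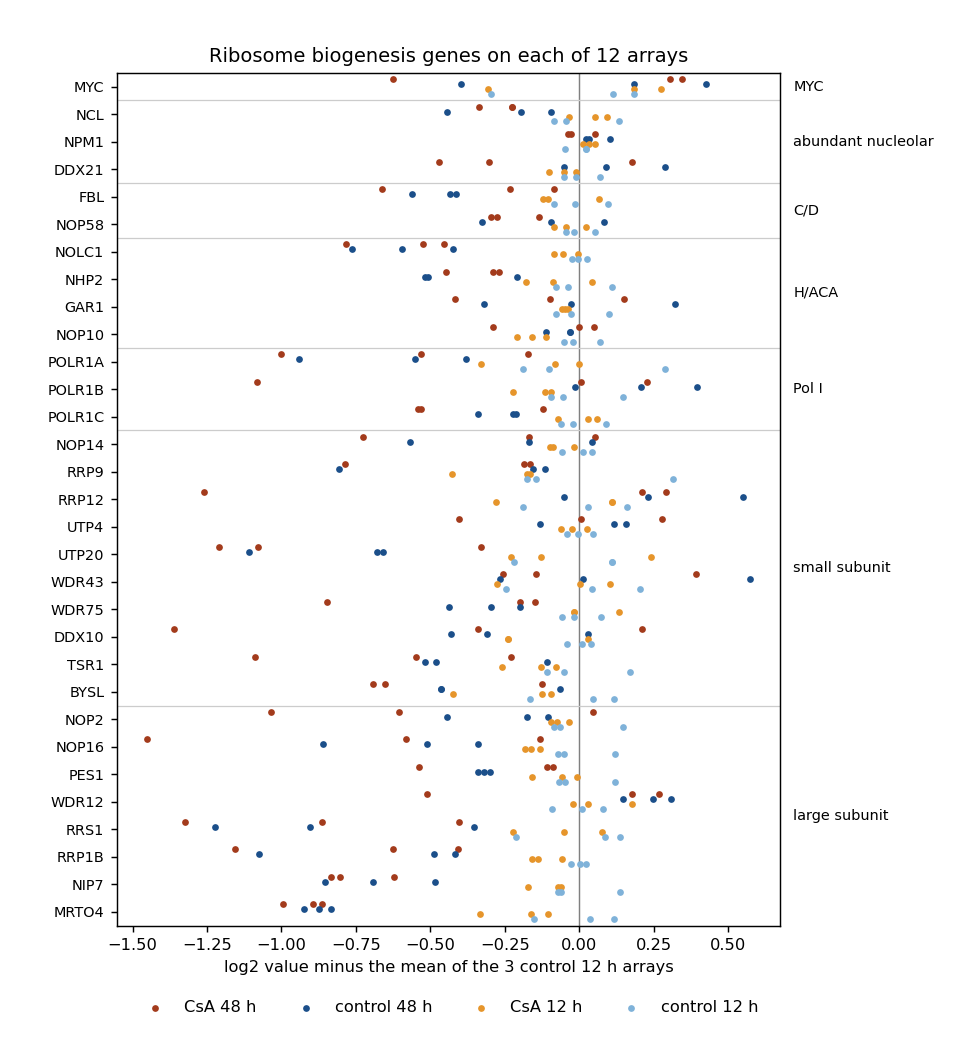
Log2 value of each of the 31 genes on each of the 12 arrays, as the difference from the mean of the 3 control 12 h arrays (x axis), with genes grouped by role down the page and colours for the 4 groups. The 12 h arrays lie close to 0, most 48 h arrays lie to the left of it, and CsA 48 h has the widest spread (median SD of a gene 0.35, against 0.20 in control at 48 h).

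The first comparison asked whether CsA changed these genes after 12 h. Differences were small: the median over the 31 genes was -0.07 on the log2 scale, against -0.01 over all tested genes, and the values ran from -0.25 for RRP9 to 0.06 for WDR12. By limma, 0 of 31 passed an adjusted p of 0.05 (0% of all genes lower and 0% higher), and 0 had an unadjusted p under 0.05 (1.31% of all genes). Values were below 0 for 25 genes (80.6%), as they were for 54.7% of all genes. In 16 genes (51.6%) CsA was below control in all 3 numbered pairs, as in 22.5% of all genes, and in 1, WDR75, it was above control in all 3, as in 18.9%. Mitosis genes at 12 h were below 0 in 24 of 24, with 15 below in all 3 pairs and a median of -0.11, and 10 of 20 DNA replication genes were below in all 3 pairs. The 3 CsA arrays lay wholly below the 3 control arrays for NOP16, NOP10, RRP1B and POLR1B (12.9% of the list, 6.57% of all genes), and wholly above them for 0 genes (5.37% of all genes).

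RRP9, a protein of the U3 snoRNP that prepares the small subunit RNA, read 6.49, 6.24 and 6.50 under CsA at 12 h, against 6.52, 6.49 and 6.98 in control. BYSL, a factor bound to the small subunit precursor, read 9.60, 9.27 and 9.57 under CsA, against 9.74, 9.53 and 9.81 in control. MRTO4, which holds the place of a stalk protein on the large subunit precursor, read 9.56, 9.33 and 9.50 under CsA, against 9.70, 9.51 and 9.78 in control. In each of these 3 genes every CsA array was below the control array of its number, although the groups overlapped. The differences were -0.25 for RRP9 (95% interval -0.77 to 0.26), -0.21 for BYSL (-0.61 to 0.18) and -0.20 for MRTO4 (-0.43 to 0.03). A second, dimmer MRTO4 probe set differed by -0.67 (SE 0.22) and did not pass either. NOP10, the smallest box H/ACA core protein, read 12.34, 12.39 and 12.29 under CsA, against 12.48, 12.45 and 12.57 in control, without overlap and with a difference of -0.16 (-0.39 to 0.07). With the pairs as a block the unadjusted intervals were -0.48 to -0.02 for RRP9, -0.39 to -0.04 for BYSL and -0.37 to -0.03 for MRTO4. In that fit RRP9, BYSL and MRTO4 had unadjusted p values under 0.05, as did 7.28% of all genes. The smallest adjusted p of the list was then 0.59 (limma, BYSL).

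**Figure D2:**
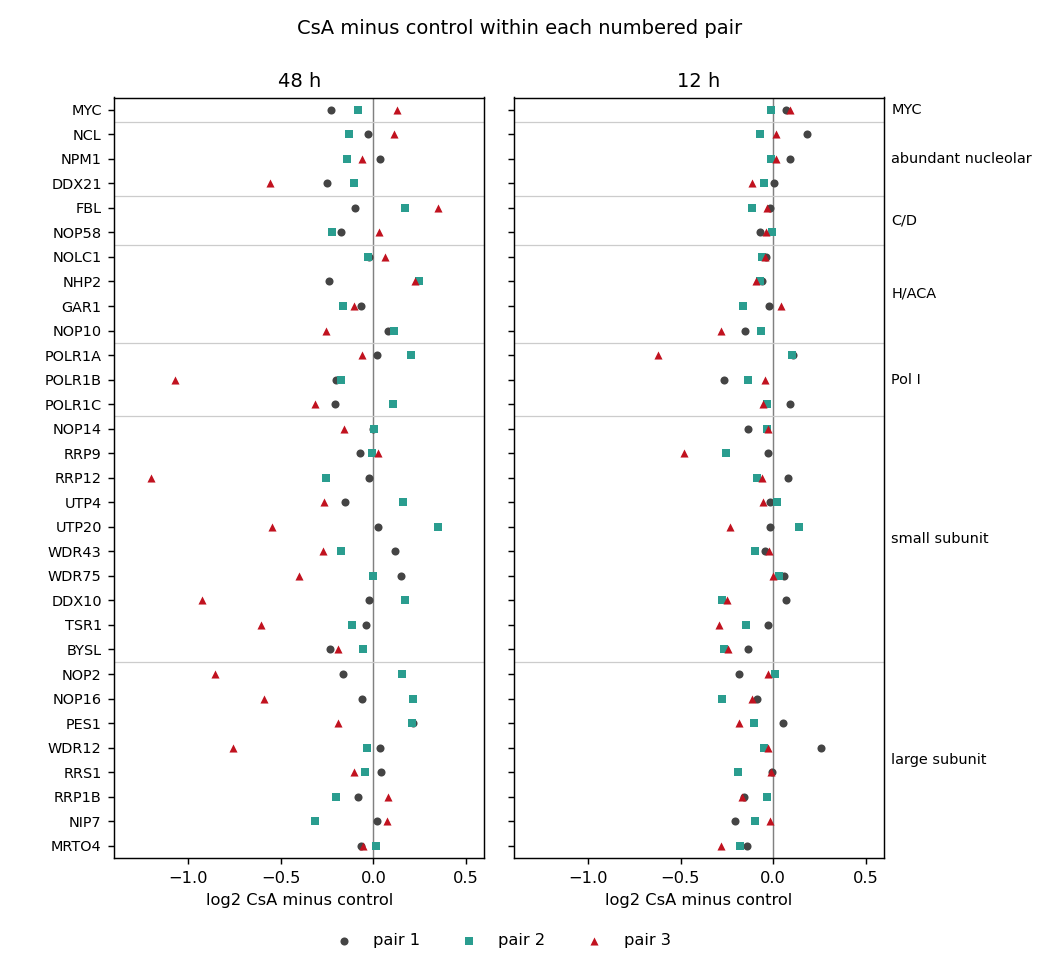
CsA minus control (log2, x axis) within each numbered pair for the 31 genes, at 48 h on the left and 12 h on the right, with a marker shape for each pair. At 48 h pair 3 spreads from -1.20 (RRP12) to 0.35 (FBL), and pairs 1 and 2 stay between -0.32 and 0.35.

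After 48 h the list as a whole again differed little between CsA and control, with a median of -0.07 against -0.02 over all genes. By limma 0 of 31 passed (0% of all genes lower and 0% higher), and 0 had an unadjusted p under 0.05 (2.52% of all genes). Values were below 0 for 26 genes (83.9%, against 54.7% of all genes), including all 10 small subunit factors. Of these 10, only TSR1 and BYSL stayed below 0 without CsA 48 h replicate 3, but that setting kept its paired control array. In pairs 1 and 2, RRP9 (-0.07 and -0.01), RRP12 (-0.02 and -0.26), TSR1 (-0.04 and -0.11) and BYSL (-0.23 and -0.06) were below 0 in both. All 3 pairs were below 0 for 6 genes (19.4%, against 16.2% of all genes), namely GAR1, RRP12, POLR1B, DDX21, TSR1 and BYSL, and above 0 for 0 genes (13.4%). For 0 genes did the CsA arrays lie wholly below the control arrays (2.49% of all genes) or wholly above them (2%).

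The median CsA difference was -0.04 in pair 1, -0.03 in pair 2 and -0.19 in pair 3. RRP12, needed for export of the small subunit precursor, read 6.98, 7.06 and 5.51 under CsA at 48 h, against 7.00, 7.32 and 6.72 in control. POLR1B, which forms the active centre of RNA polymerase I with POLR1A, read 9.19, 9.41 and 8.10 under CsA, against 9.39, 9.58 and 9.17 in control. In both genes the array of CsA replicate 3 was the lowest of the 6 by a wide margin and the other arrays overlapped. Pair 3 differed by -1.20 for RRP12, -1.07 for POLR1B, -0.92 for DDX10, -0.86 for NOP2 and -0.76 for WDR12, whereas pairs 1 and 2 lay between -0.26 and 0.17 for these 5 genes. NOP2, which methylates large subunit RNA, read 9.03, 9.68 and 8.60 under CsA, against 9.19, 9.53 and 9.46 in control. WDR12, a partner of PES1 in large subunit assembly, read 10.08, 10.17 and 9.39 under CsA, against 10.05, 10.21 and 10.15 in control. FBL went the other way in pair 3, by 0.35.

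CsA 48 h replicate 3 was the lowest array of its group for 21 of the 31 genes (67.7%), and for 46.0% of all genes. Without that array the median of the CsA difference at 48 h was 0.02, 14 of 31 values were below 0, and the values ran from -0.23 (RRP1B) to 0.27 (POLR1A). RRP12 then differed by 0.01 and POLR1B by -0.08, against -0.49 (95% interval -1.28 to 0.29) and -0.48 (-1.10 to 0.13) with all arrays. Dropping that array alone keeps its paired control. With both arrays of pair 3 left out, the median was -0.03 and 19 of 31 values were below 0. In pairs 1 and 2 RRP12 differed by -0.02 and -0.26, and POLR1B by -0.20 and -0.17. DDX21, a helicase of RNA polymerase I transcription and ribosomal RNA processing, read 12.26, 12.74 and 12.09 under CsA, against 12.51, 12.85 and 12.65 in control. Its difference was -0.31 (-0.65 to 0.04), or -0.17 without CsA 48 h replicate 3 alone. The 3 other POLR1B probe sets differed by 0.37, -0.20 and 0.18 at 48 h and by 0.21, 0.05 and -0.15 at 12 h, so they disagree in sign. With the pairs as a block the unadjusted intervals were -0.54 to -0.07 for DDX21, -0.90 to -0.07 for POLR1B and -0.98 to -0.005 for RRP12. In that fit DDX21, POLR1B and RRP12 had unadjusted p values under 0.05, as did 12.3% of all genes. The smallest adjusted p was then 0.37 (limma).

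MYC itself varied with the replicate number. At 48 h it read 11.17, 12.14 and 12.10 under CsA, against 11.40, 12.22 and 11.98 in control, and at 12 h 11.98, 11.49 and 12.07 under CsA, against 11.91, 11.50 and 11.98 in control. Replicate 1 was the low one in both groups at 48 h and replicate 2 in both groups at 12 h. The CsA difference was -0.06 at 48 h (95% interval -0.72 to 0.60) and 0.05 at 12 h (-0.61 to 0.71). With the pairs as a block the intervals were -0.27 to 0.15 and -0.16 to 0.26, and single pairs lay between -0.23 and 0.13. Without CsA 48 h replicate 3 the 48 h difference was -0.21, and in pairs 1 and 2 it was -0.23 and -0.08. The difference between the times was -0.04 under CsA and 0.07 in control.

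**Figure D3:**
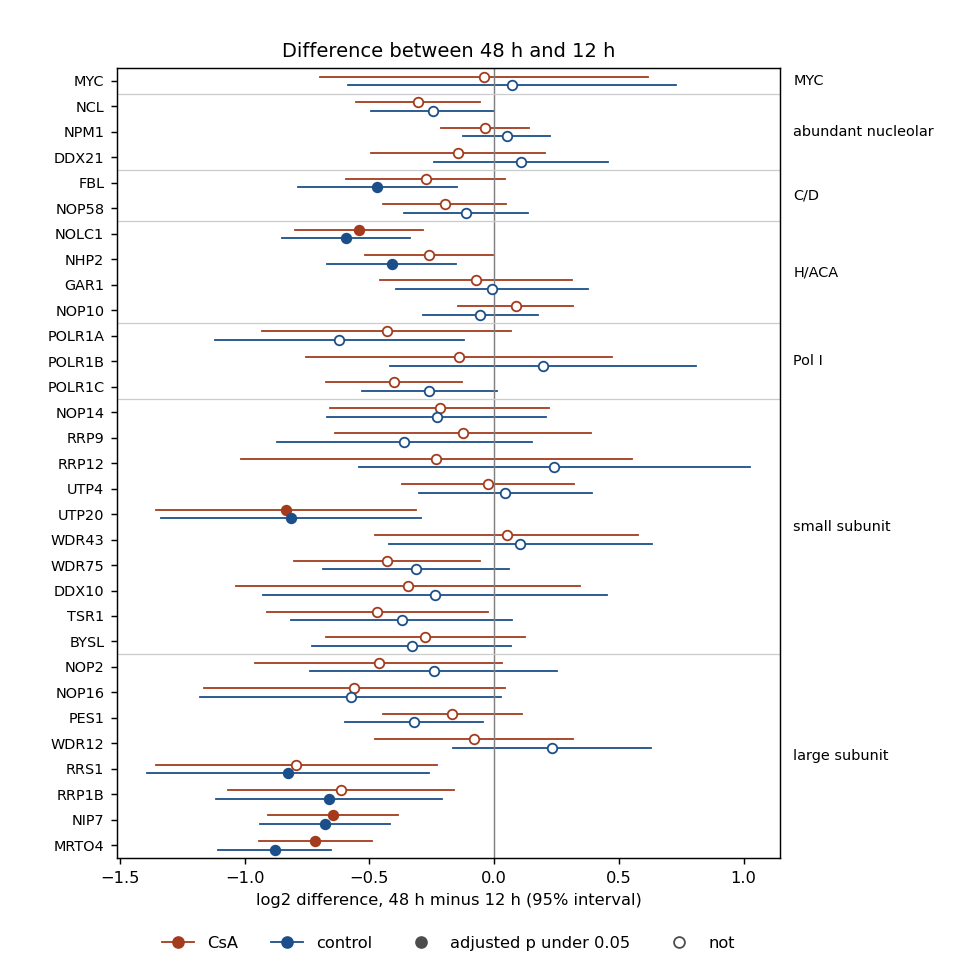
Difference between 48 h and 12 h (log2, x axis, with 95% intervals) for the 31 genes, under CsA above and in control below on each line. Filled points passed limma's adjusted p of 0.05: 4 under CsA and 8 in control, all left of 0.

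The wider contrast lay between the times. Under CsA 4 of 31 genes fell between 12 h and 48 h and 0 rose by limma (12.9% lower, against 7.58% of all genes lower and 6.77% higher), with a median of -0.27 against 0.01 over all genes and 29 values below 0 (49% of all genes). They were MRTO4, NIP7, NOLC1 and UTP20. In control cells 8 of 31 fell and 0 rose (25.8% lower, against 13.7% of all genes lower and 12.5% higher), with a median of -0.26 against 0.01 over all genes and 23 values below 0 (49.1% of all genes). They were the same 4 genes with NHP2, FBL, RRS1 and RRP1B, and 6.5% of all genes were called lower in both. Under CsA the 3 arrays at 48 h lay wholly below those at 12 h for 11 genes (35.5%, against 18.9% of all genes) and wholly above for 0 (16% of all genes). In control they lay wholly below for 15 genes (48.4%, against 25.2% of all genes) and wholly above for 1, WDR12 (24.9% of all genes). For 10 genes all 6 arrays at 48 h lay below all 6 at 12 h (32.3%, against 13.1% of all genes), and for 0 they lay above (10.1%). Time in culture, cell density and age of the medium differ along with the 2 times and cannot be told apart.

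These counts moved with the arrays used. Under CsA, leaving out 1 array gave 2 to 7 of 31 genes lower, with 2 without CsA 12 h replicate 1 or 3 or CsA 48 h replicate 1, and 7 without CsA 48 h replicate 2. Lower calls under CsA among all 10508 genes ran from 222 to 1824 over these 12 settings, with 405 without CsA 48 h replicate 2. Without CsA 48 h replicate 3 the median of the list under CsA was -0.19, with 21 of 31 values below 0. In control it gave 3 to 12, with 3 without replicate 2 or 3 of control at 12 h, 4 without replicate 1 of control at either time, 5 without replicate 2 or 3 of control at 48 h or replicate 1 or 2 of CsA at 12 h, and 12 without CsA 48 h replicate 3. Lower calls in control among all 10508 genes ran from 648 to 2050 over the same 12 settings. MRTO4 and NIP7 kept their calls under CsA and in control without any single array, and NOLC1 kept its call in control. UTP20 kept its call under CsA in 3 of these 12 settings.

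Of the large subunit factors 2 of 8 fell under CsA (25%, median -0.59) and 4 of 8 in control (50%, median -0.62). Over all genes 7.58% fell under CsA and 13.7% in control. MRTO4 read 8.67, 8.80 and 8.77 under CsA at 48 h, against 9.56, 9.33 and 9.50 at 12 h. In control it read 8.74, 8.79 and 8.83 at 48 h, against 9.70, 9.51 and 9.78 at 12 h. All 6 arrays at 48 h lay below 9 and all 6 at 12 h above it. MRTO4 fell by 0.72 under CsA (SE 0.10, limma adjusted p = 0.0046) and by 0.88 in control (SE 0.10, adjusted p = 0.0011), that is 1.64-fold and 1.84-fold lower. Its other, dimmer probe set differed by -0.28 under CsA (adjusted p = 0.41 over 18508 probe sets) and fell by 1.01 in control (adjusted p = 0.011).

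NIP7, a large subunit factor conserved from yeast, read 9.95, 9.98 and 10.16 under CsA at 48 h, against 10.72, 10.61 and 10.71 at 12 h. In control it read 9.93, 10.30 and 10.09 at 48 h, against 10.92, 10.71 and 10.72 at 12 h. Again no array overlapped between the times. NIP7 fell by 0.65 under CsA (SE 0.12, limma adjusted p = 0.0086) and by 0.68 in control (SE 0.12, adjusted p = 0.0042). RRS1, which takes part in bringing the small ribosomal RNA of the large subunit into the particle, read 9.48, 9.94 and 9.02 under CsA at 48 h, against 10.42, 10.29 and 10.12 at 12 h. In control RRS1 read 9.44, 9.99 and 9.12 at 48 h, against 10.43, 10.48 and 10.13 at 12 h. Its differences were -0.79 under CsA (SE 0.25, limma adjusted p = 0.062), short of the threshold, and -0.83 in control (SE 0.25, adjusted p = 0.038).

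RRP1B, a nucleolar protein of the large subunit pathway, averaged 10.13 ± 0.39 under CsA at 48 h and 10.74 ± 0.05 at 12 h, and 10.20 ± 0.36 in control at 48 h and 10.86 ± 0.03 at 12 h (log2, SD, n = 3). Its difference was -0.61 under CsA (limma adjusted p = 0.068) and -0.66 in control (adjusted p = 0.038), and its other probe set differed by -0.58 and -0.06. NOP16 and PES1 also lay wholly lower at 48 h in control, by -0.57 and -0.32, without passing the test. WDR12 differed by -0.08 under CsA, or 0.17 without CsA 48 h replicate 3, and by 0.23 in control (95% interval -0.16 to 0.63), where all 3 arrays at 48 h were above those at 12 h. The other WDR12 probe set past the filter differed by -0.34 under CsA and by -0.04 in control, where the signs disagree.

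**Figure D4:**
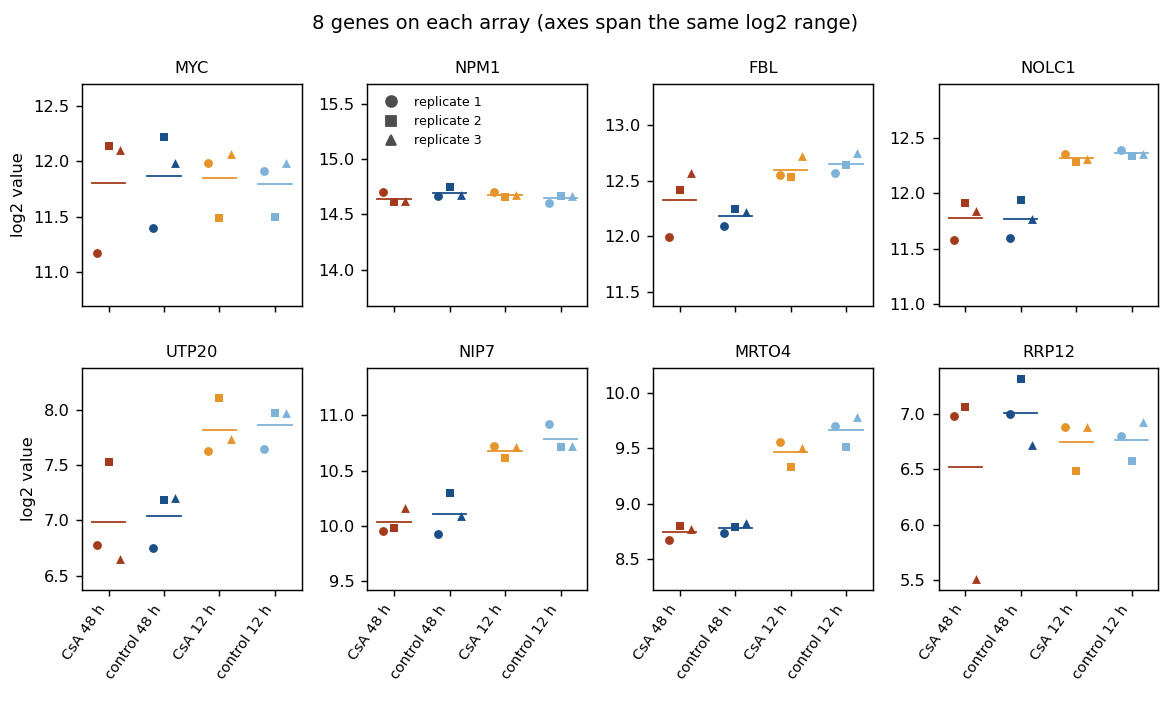
Log2 value (y axis, each panel spanning the same range) of MYC, NPM1, FBL, NOLC1, UTP20, NIP7, MRTO4 and RRP12 on each array, with bars at the group means and a marker shape for each replicate number. NOLC1, UTP20, NIP7 and MRTO4 are lower at 48 h on every array, the arrays of the 2 times overlap for MYC and NPM1, and RRP12 is low on CsA 48 h replicate 3.

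Of the box H/ACA core proteins counted with the chaperone NOLC1, 1 of 4 fell under CsA (25%, against 7.58% of all genes). In control 2 of 4 fell (50%, against 13.7%). The call under CsA was NOLC1, and those in control were NOLC1 and NHP2. NOLC1, a chaperone that carries both kinds of snoRNP in the nucleolus, read 11.58, 11.91 and 11.84 under CsA at 48 h, against 12.36, 12.28 and 12.31 at 12 h. In control it read 11.60, 11.94 and 11.77 at 48 h, against 12.39, 12.34 and 12.36 at 12 h. No array overlapped between the times, and the spread of the 12 h arrays was 0.04 or less (SD). NOLC1 fell by 0.54 under CsA (SE 0.12, limma adjusted p = 0.016) and by 0.59 in control (SE 0.12, adjusted p = 0.0067). Its other probe sets fell by 0.74 and 0.85 in control (adjusted p = 0.0065 and 0.0043 over 18508 probe sets).

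NHP2, a core protein of box H/ACA particles and of telomerase, averaged 11.67 ± 0.10 under CsA at 48 h and 11.93 ± 0.11 at 12 h, and 11.60 ± 0.17 in control at 48 h and 12.01 ± 0.10 at 12 h (log2, SD, n = 3). It differed by -0.26 under CsA (limma adjusted p = 0.15) and fell by 0.41 in control (adjusted p = 0.028). Its partners in the same particle stayed closer to 0, GAR1 at -0.07 under CsA (95% interval -0.46 to 0.31) and -0.01 in control (-0.39 to 0.38), and NOP10 at 0.09 (-0.14 to 0.32) and -0.06 (-0.29 to 0.17). Whether NHP2, GAR1 and NOP10 differ from each other over time was not tested.

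FBL, the methyltransferase of box C/D particles, read 11.99, 12.42 and 12.57 under CsA at 48 h, against 12.55, 12.53 and 12.72 at 12 h. In control it read 12.09, 12.24 and 12.22 at 48 h, against 12.57, 12.64 and 12.75 at 12 h. The CsA arrays overlapped between the times and the control arrays did not. FBL differed by -0.27 under CsA (SE 0.14, limma adjusted p = 0.21), or by -0.40 without CsA 48 h replicate 3 (adjusted p = 0.044), and fell by 0.47 in control (SE 0.14, adjusted p = 0.037). NOP58, the other core protein measured, differed by -0.20 under CsA and -0.11 in control.

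Among 10 small subunit factors UTP20 alone passed, under CsA and in control. That is 10% lower in each, against 7.58% of all genes under CsA and 13.7% in control. UTP20, a very large scaffold protein of the early small subunit precursor, read 6.78, 7.53 and 6.65 under CsA at 48 h, against 7.63, 8.10 and 7.73 at 12 h. In control it read 6.75, 7.18 and 7.20 at 48 h, against 7.64, 7.97 and 7.97 at 12 h. All 6 arrays at 48 h were below all 6 at 12 h. UTP20 fell by 0.84 under CsA (SE 0.23, limma adjusted p = 0.041) and by 0.82 in control (SE 0.23, adjusted p = 0.030). Without CsA 48 h replicate 3 its CsA value was -0.67 (adjusted p = 0.054), that of TSR1 -0.24 and that of WDR75 -0.20. The other 9 ran from -0.47 (TSR1) to 0.05 (WDR43) under CsA and from -0.37 (TSR1) to 0.24 (RRP12) in control. Other TSR1 probe sets differed by -0.49, -0.03 and 0.44 under CsA and by -0.25, -0.07 and 0.43 in control, so they disagree in sign. WDR75, which in yeast belongs with UTP4 and WDR43 to the first complex on the precursor, was lower on all 6 arrays at 48 h, with differences of -0.43 under CsA and -0.31 in control that did not pass, while UTP4 differed by -0.03 and 0.05 and WDR43 by 0.05 and 0.11.

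No subunit of RNA polymerase I passed. POLR1A, its largest subunit, differed by -0.43 under CsA (limma adjusted p = 0.21) and -0.62 in control (adjusted p = 0.064), and POLR1C, shared with RNA polymerase III, by -0.40 (adjusted p = 0.053) and -0.26 (adjusted p = 0.14). Without CsA 48 h replicate 3 POLR1A differed by -0.21 under CsA. POLR1C lay lower at 48 h on all 6 arrays. POLR1B differed by -0.14 under CsA, or 0.26 without CsA 48 h replicate 3, and by 0.20 in control. Other POLR1B probe sets differed by 0.26, 0.08 and 0.05 under CsA and by 0.10, 0.33 and -0.28 in control, so they disagree in sign. The other POLR1A probe set past the filter differed by -0.14 under CsA and -0.24 in control. The other POLR1C probe set differed by -0.43 and -0.36.

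The abundant nucleolar proteins also gave 0 calls of 3. NCL (nucleolin), which binds nascent ribosomal RNA, read 12.82, 12.82 and 12.71 under CsA at 48 h, against 13.14, 13.10 and 13.01 at 12 h. In control it read 12.85, 12.95 and 12.60 at 48 h, against 12.96, 13.18 and 13.00 at 12 h. NCL was thus lower on all 6 arrays at 48 h, with differences of -0.31 under CsA (limma adjusted p = 0.089) and -0.25 in control (adjusted p = 0.12). NPM1 (nucleophosmin), a chaperone of the outer nucleolus, read 14.70, 14.61 and 14.62 under CsA at 48 h, against 14.70, 14.66 and 14.68 at 12 h. In control NPM1 read 14.67, 14.75 and 14.68 at 48 h, against 14.60, 14.67 and 14.67 at 12 h. The probe set used for NPM1 varied by only 0.15 over the 12 arrays, and its intervals ran from -0.21 to 0.14 under CsA and from -0.13 to 0.23 in control. The dimmest NPM1 probe set fell by 0.49 under CsA and by 0.51 in control (limma adjusted p = 0.023 and 0.012 over 18508 probe sets), so the probe sets of this gene disagree.

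Whether the CsA difference itself changed between the times was tested as an interaction. By limma 0 of 31 genes passed (0% of all genes lower and 0% higher), and 0 had an unadjusted p under 0.05 (1.54% of all genes). Values were below 0 for 17 genes (50.4% of all genes). They ran from -0.47 for RRP12 (95% interval -1.58 to 0.64) to 0.24 for RRP9 (-0.49 to 0.96). For MRTO4 the value was 0.16 (-0.16 to 0.48), and for NIP7 0.03 (-0.34 to 0.40). The other, dimmer MRTO4 probe set was at 0.73 (SE 0.31), without passing. Without CsA 48 h replicate 3 RRP12 was at 0.03, RRP9 at 0.44 and 9 of 31 values were below 0, as were 9 without control 48 h replicate 2. With both arrays of pair 3 at 48 h left out, 12 of 31 were below 0. The median of the list was -0.06, and ran from -0.20 to 0.10 over the alternatives. A gene called in control and not under CsA is therefore not shown to differ between them.

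Assembly factors outside the list were counted in the same way over time. Of 46 other small subunit factors 6 fell (13.0%) and 0 rose under CsA, and 10 fell (21.7%) and 0 rose in control. Of 48 other large subunit factors 4 fell (8.33%) and 1 rose under CsA, and 8 fell (16.7%) and 2 rose in control. Over all genes 7.58% fell and 6.77% rose under CsA, and 13.7% fell and 12.5% rose in control, so the large subunit shares were near those of all genes. Examples lower by limma were FTSJ3, a nucleolar RNA methyltransferase (-0.65 under CsA, adjusted p = 0.0050, and -0.98 in control, adjusted p = 9.4e-04), and RRP36, a small subunit factor (-0.46, adjusted p = 0.010, and -0.73, adjusted p = 0.0012). EFL1, the GTPase that releases a factor from the nearly finished large subunit, was higher (0.92, adjusted p = 0.041, and 1.05, adjusted p = 0.017). Of 13 other RNA polymerase I genes 1 fell under CsA and 3 in control. TCOF1, a nucleolar factor mutated in Treacher Collins syndrome, was the one called in both (-1.10, adjusted p = 0.022, and -1.35, adjusted p = 0.0062). UBTF, which opens ribosomal DNA for the polymerase, differed by -0.60 (adjusted p = 0.086) and -0.63 (adjusted p = 0.055), and RRN3, an initiation factor of the same polymerase, by -0.10 and 0.41.

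MYC did not pass over time. Of 8 MYC network partners 2 rose and 0 fell under CsA, and 3 rose and 1 fell in control. MXI1 and MNT, which compete with MYC for MAX and repress its targets, rose by 1.16 (limma adjusted p = 0.036) and 0.75 (0.013) under CsA, and by 1.27 (0.017) and 0.81 (0.0056) in control. MXD1, of the same family, differed by 1.12 under CsA (adjusted p = 0.10) and rose by 1.91 in control (adjusted p = 0.012), while MAX differed by 0.59 and 0.61 without passing. MLXIP, a glucose-responsive factor that pairs with MLX, differed by -0.62 under CsA (adjusted p = 0.17) and fell by 0.90 in control (adjusted p = 0.049). Of 22 MYC targets outside the nucleolus 6 fell and 1 rose under CsA, and 9 fell and 2 rose in control. That is 27.3% and 40.9% lower, against 7.58% and 13.7% of all genes lower and 6.77% and 12.5% higher. ODC1, which makes putrescine, fell by 0.45 (adjusted p = 0.036) and 0.70 (adjusted p = 0.0041), and NME1, a nucleoside diphosphate kinase, by 0.63 (adjusted p = 0.020) and 0.53 (adjusted p = 0.023). SRM, which makes spermidine, differed by -0.39 and -0.48, and CAD, which starts pyrimidine synthesis, by -0.21 and -0.21, none past the threshold. CDK4, which drives entry into S phase, rose by 0.38 (adjusted p = 0.039) and 0.44 (adjusted p = 0.015).

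**Figure D5:**
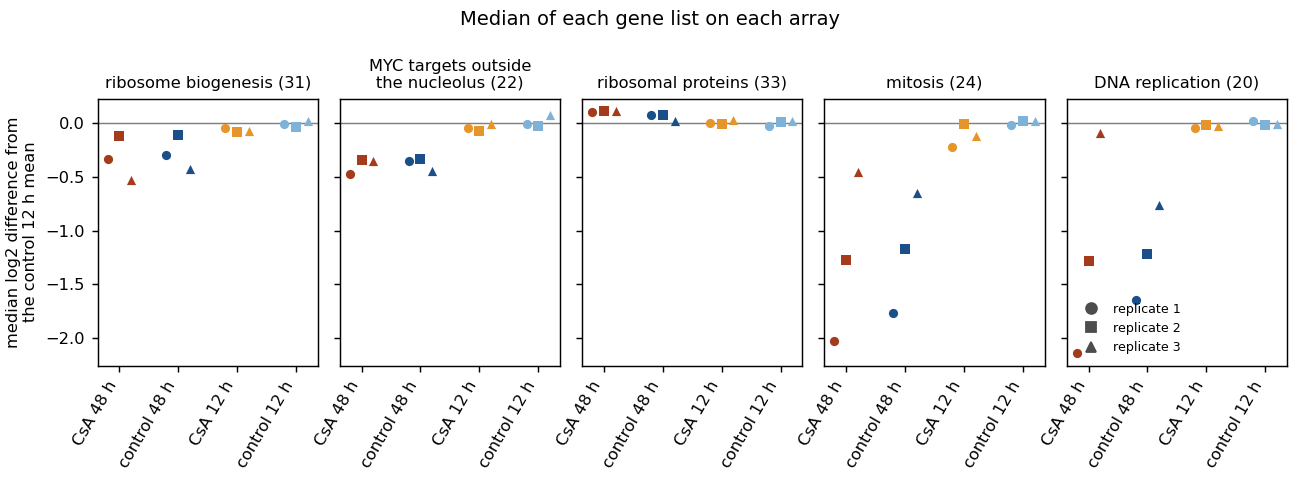
Median over each gene list of the log2 difference from the control 12 h mean (y axis) on each array, for ribosome biogenesis, MYC targets outside the nucleolus, ribosomal proteins, mitosis and DNA replication, with a marker shape for each replicate number. At 48 h replicate 3 is the lowest for ribosome biogenesis and the highest for mitosis and DNA replication, in both CsA and control.

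Messages for the ribosomal proteins themselves held few calls. Of 33 cytosolic ribosomal protein genes 0 fell and 1, RPL3, rose by limma, both under CsA and in control, with medians of 0.10 and 0.05. At 48 h 32 of the 33 had CsA values above control, as did 4761 of all 10508 genes. The median of the 33 was 0.06, and the arrays did not overlap for 13 of them (2% of all genes higher), although 0 passed the test. Of 24 mitosis genes 8 fell under CsA (33.3%, median -1.11) and 18 in control (75%, median -1.20). Of 20 DNA replication genes 3 fell under CsA (15%, median -1.13) and 9 in control (45%, median -1.18), against 7.58% and 13.7% of all genes. Against the control 12 h mean, the median of the ribosome biogenesis genes at 48 h was -0.34, -0.12 and -0.53 under CsA and -0.30, -0.11 and -0.43 in control. The median of the mitosis genes on the same arrays was -2.02, -1.27 and -0.46 under CsA and -1.76, -1.17 and -0.66 in control. The arrays lowest for ribosome biogenesis, both replicates 3, were thus the ones whose mitosis genes were closest to the 12 h level. Replicates 1 and 2 did not follow that order, since replicate 2 was above replicate 1 for both lists, under CsA and in control. The part of the cell cycle in the time difference was not tested.

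Genes with and without the E-box overlapped in their difference over time, from -0.84 to 0.09 with it and -0.65 to -0.04 without it under CsA, and from -0.88 to 0.11 and -0.68 to 0.23 in control. The 13 genes with the motif had a median of -0.17 under CsA and -0.24 in control, and the 12 without it -0.37 and -0.29. Of the genes called lower, 2 with and 1 without the motif were called under CsA, and 3 with and 2 without in control, the rest having no window in the table.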

How the data were processed

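The deposited values, 1 table of 54675 probe sets on 12 arrays, are on the log2 scale and were made by the authors with GCRMA, per the submitters' processing notes (version not given in the sources used here). GCRMA corrects background from probe sequence and brings arrays to a common distribution, which removes a global change in RNA amount. The deposited log2 values were used without further normalization. Probe sets were named from the platform annotation: 41091 had 1 gene symbol, 1801 several, 11721 none and 62 were controls. NOP56, DKC1, BOP1 and PPAN lie only on probe sets with several symbols, which were not named.

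Two-sided tests used limma 3.58.1 in R 4.3.3, with 4 group means over 12 arrays (8 residual degrees of freedom), eBayes and Benjamini-Hochberg adjustment over 10508 genes at 0.05. The fit was also run on simulated data with independent arrays. The real arrays deviate in pairs, so that run does not show how the fit behaves on them. Other probe sets came from the same fit over all 18508 probe sets past the filter. The members, gene lists and alternatives were chosen with earlier results of these data known. Array by array values are given for MYC, NCL, NPM1, FBL, POLR1B, the 4 genes with the largest difference in each comparison, and NOLC1, added after its values were seen. In other lists the 2 genes with the largest moderated statistic on each side, and a fixed set of MYC, p53 and polymerase I genes, could be named.

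Same-numbered CsA and control arrays deviated together (r = 0.37, 0.53 and 0.59 at 12 h and 0.78, 0.54 and 0.74 at 48 h), a pairing that comes from the data. Same-numbered arrays of different times did not (-0.14 to 0.23). Comparisons over time and between CsA and control use the same arrays and are not independent. The number of arrays limits the precision. Sequences and coordinates are from RefSeq (GRCh38.p14).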

Additional observations from a re-analysis of the deposited data

How the results depend on the processing

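The counts of 0 of 31 genes in both CsA comparisons and in the interaction held under every alternative run. Under CsA over time, the 4 genes became 0 when only the arrays compared were fitted (smallest adjusted p 0.057, MRTO4, and 15 lower of 10508 genes, against 797), 8 with the replicate block (1304 of 10508 genes lower), and 1 to 7 with arrays or pairs left out. In control over time, the 8 genes became 4 with no filter on dim probe sets and 3 to 12 with arrays or pairs left out, and were 7 to 10 under the other alternatives. The replicate block across times gave 9 genes in control (1873 of 10508); the numbers do not pair the arrays between times. Within a time it changed no call among the 31 listed genes. Over all 10508 genes it gave 3 higher for CsA at 12 h, against 0 in the main fit. Over 29 alternatives MRTO4 passed under CsA in 28, NIP7 in 26, NOLC1 in 22 and UTP20 in 11. In control MRTO4, NIP7 and NOLC1 passed in all 29, UTP20 in 20, NHP2 in 18, FBL and RRS1 in 16 and RRP1B in 15. Each of these kept its sign in all 29. The median over the list ran from -0.40 to -0.07 (array weights) under CsA over time, from -0.36 to -0.21 in control over time, from -0.10 to -0.06 for CsA at 12 h and from -0.23 to 0.02 for CsA at 48 h.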

Other observations

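Over all genes, 7.58% fell and 6.77% rose under CsA between 12 h and 48 h, and 13.7% fell and 12.5% rose in control. Of 21 RNA polymerase III genes 2 fell under CsA (9.52%) and 4 in control (19.0%), with 1 higher in control, not far from those shares. POLR3K, a subunit of that polymerase, fell by 0.78 under CsA (limma adjusted p = 0.0046) and 0.89 in control (adjusted p = 0.0012). Of 10 snoRNP assembly factors 2 fell under CsA (20%) and 4 in control (40%). SHQ1, which escorts dyskerin, fell by 0.59 (adjusted p = 0.024) and 0.65 (adjusted p = 0.010). Of 13 genes of the RNA exosome, which trims ribosomal RNA precursors, 2 fell under CsA (15.4%), and 2 fell (15.4%) and 1 rose in control. EXOSC2 fell by 0.50 (adjusted p = 0.035) and 0.54 (adjusted p = 0.018), while EXOSC6 rose by 2.47 in control (adjusted p = 0.012).

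Of 7 genes of nucleolar stress and p53, 1 rose under CsA and 3 in control between 12 h and 48 h, against 6.77% and 12.5% of all genes. MDM4, a p53 inhibitor, rose by 1.03 (adjusted p = 0.012) and 1.08 (adjusted p = 0.0061). GADD45A, a growth arrest gene, differed by 1.18 under CsA (adjusted p = 0.081) and rose by 2.22 in control (adjusted p = 0.0056). CDKN1A, which encodes the cell cycle inhibitor p21, differed by 0.94 (adjusted p = 0.10) and rose by 1.20 (adjusted p = 0.034), and MDM2 differed by 0.48 and 0.54, short of the threshold. At 12 h all 7 had CsA values above control, as did 4755 of all 10508 genes. Their median was 0.10, and 0 of the 7 passed limma's test or had an unadjusted p under 0.05.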
